A study of Mus musculus with 4 samples.

Results

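The expression of 10 genes, the ABL kinases and a set of proteins that bind them, was examined in mouse hematopoietic cells of the line 32Dcl3 after CRISPR/Cas9 editing of Abl1 (32Dcl3-Abl1ko); the unedited line depends on interleukin-3 (IL-3). The genes were chosen by name (Abl1, Abl2, Rin1, Bcr, Abi1, Abi2, Crk, Crkl, Nck1 and Nck2), and all 10 were found among the 23756 genes of the deposited table. RNA-seq was available for 2 groups that share the Abl1 knockout genotype: cells kept with IL-3 (Abl1ko/IL3+, 2 libraries) and cells growing without it (Abl1ko/IL3-, 2 libraries). According to the paper, growth factor-independent cells arose from the edited cells after gradual withdrawal of IL-3. The absence of IL-3 and the outgrowth of such cells therefore cannot be told apart here. The edited cells were made by infecting 32Dcl3 cells with a lentivirus that carried Cas9 and 1 of 2 guide RNAs, followed by puromycin selection and picking of single clones, and the labels do not say which clone or guide each library came from. Unedited 32Dcl3 cells were not analysed here, so every comparison is between edited cells. The submitters describe the experiment as biologically duplicated, and nothing in the labels says whether libraries with the same number share a clone or a day.

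ABL1 and ABL2 are the members of a small family of nonreceptor tyrosine kinases, in which SH3 and SH2 domains hold the catalytic domain in an inactive form until partner proteins engage them. RIN1 is a RAS effector that binds these domains and activates the kinase. ABI1 and ABI2 are ABL interactors and substrates that also serve as subunits of the WAVE complex, which promotes branched actin growth. CRK, CRKL, NCK1 and NCK2 are adaptors built of SH2 and SH3 domains, and CRKL is a prominent substrate of BCR-ABL1, the leukemia fusion in which BCR sequences bring ABL1 molecules together and keep the kinase active.

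The targeted stretch of Abl1 is shown first, because it tells which sequence the cells share and how far the remaining paralog differs there. Both guide sites, found by exact matches of the guides in the study's supplement to reference transcripts, overlap within 35 bases of the coding part of exon 3 of 11 of Abl1, on chromosome 2 of GRCm38. Of 141767 reference transcripts searched, the guides matched transcripts of 1 gene, Abl1. In the lines below, 120 bases of that exon, chr2:31779097-31779216 on the plus strand (transcript ENSMUST00000028190), are followed by the best ungapped match in Abl2, chr1:156625464-156625583 on the plus strand, in the coding part of exon 4 of 12 (transcript ENSMUST00000027888). Both come from the GENCODE reference transcripts, and capitals mark the bases that differ between the genes.
Abl1: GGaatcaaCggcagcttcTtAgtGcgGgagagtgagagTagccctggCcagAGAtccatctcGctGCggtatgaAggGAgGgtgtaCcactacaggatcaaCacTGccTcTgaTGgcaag
Abl2: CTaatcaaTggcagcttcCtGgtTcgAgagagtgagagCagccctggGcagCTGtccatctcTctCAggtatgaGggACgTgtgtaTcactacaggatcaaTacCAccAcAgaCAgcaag
The paralogs were identical at 93 of the 120 bases (77.5%). The site of gRNA1, bases 59 to 78 of the stretch on the minus strand, and that of gRNA2, bases 74 to 93 on the plus strand, each differed from Abl2 at 5 of 20 bases. Counts per gene are summed over 11596 exon bases of Abl1, of which both sites together cover 35. The counts thus carry no measure of the edit itself and do not check the knockout. According to the paper, a T7E1 assay found insertions or deletions in the edited cells, and Western blots showed lowered ABL1 protein.

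Reads could be shared between paralogs only over short identical stretches. Abl1 and Abl2 transcripts shared no stretch of 50 bases, and their longest identical run was 35 bases. The longest runs were 23 bases for Abi1 and Abi2, 23 for Crk and Crkl and 20 for Nck1 and Nck2. Abl1 and Abi1 overlap exons of a gene on the opposite strand, and whether strand was used in counting is not given in the sources used here. For Abl1 the overlap was 94 bases with Gm13427, which had 4 to 17 counts per library. For Abi1 it was 194 of 4032 bases with Pdss1, which had 206 to 487 counts.

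The libraries held 48953174 to 60382588 counts, and the 10 genes had between 166 and 7118 counts in a library. Exact Poisson 95% intervals, which cover counting error only and take counts as independent, were thus within 2.33% to 15.5% of each count. The labels call the cells pre-B-cells. Among the B lineage markers measured, Rag1 was listed at 0 in 3 of 4 libraries, although Cd79b reached 10.9 FPKM (fragments per kilobase of transcript, scaled to library size, as deposited). The 12 myeloid progenitor markers ranged from Kit, with 4 counts or fewer in each library, and Csf3r (0 to 45 counts) over Elane (2.10 to 4.54 FPKM) to Ctsg (92.7 to 203.9 FPKM) and Mpo. Their sum was 1439 and 951 FPKM in Abl1ko/IL3+ cells and 710 and 694 FPKM in Abl1ko/IL3- cells. In 2 of the 12 the groups did not overlap, with the lower values without IL-3. Of all genes tested, 17.9% were apart in that direction in normalized counts. The 2 were Mpo (528 and 346 against 227 and 135 FPKM) and Spi1 (42.2 and 39.1 against 24.9 and 38.8 FPKM). Summed over 5 erythroid markers, Abl1ko/IL3+ replicate 1 had 179 FPKM and the other libraries 1868 to 6878 FPKM, mostly from the globin gene Hba-a1. The 8 markers of maturing granulocytes summed to 177 and 596 FPKM with IL-3 and to 792 and 4162 FPKM without it, and Mmp8 among them was listed at 0 in both Abl1ko/IL3+ libraries. In 6 of the 8 the groups did not overlap, with the higher values without IL-3, against 19.4% of all genes tested in normalized counts. Lcn2 overlapped, as did Ngp, the most abundant of them.

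None of the 10 genes passed the test between cells growing without and with IL-3. Counts were normalized by the TMM method, and the quasi-likelihood test of edgeR, adjusted by the Benjamini-Hochberg method, covered 16535 genes that passed the expression filter, of which 0 (0%) had an adjusted p-value under 0.05. Among the 10 genes the lowest adjusted p-value was 0.815, for Abi2. Before adjustment, 1 of the 10 genes had a p-value under 0.05, against 978 of all genes tested (5.91%), so the members' share rests on a single gene. DESeq2's Wald test also gave 0 of the 10 genes an adjusted p-value under 0.05, where it called 1.64% of all genes, and 2 of them, Bcr and Abi2, had one before adjustment, where 8.28% of all genes did. limma on log2(FPKM + 1) gave 0 of 10 genes either way, beside 0% of all genes after and 6.37% before adjustment. Of the 10 genes, 8 had a negative log2 fold change (lower without IL-3) and 2 a positive one, with a median of -0.32, beside a median of -0.027 over all genes tested. The median of the 10 genes was 0.0071 without Abl1ko/IL3+ replicate 1 and -0.66 without Abl1ko/IL3+ replicate 2. In RNA from whole cultures, fewer cells of a type and less RNA per cell cannot be told apart.

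**Figure D1:**
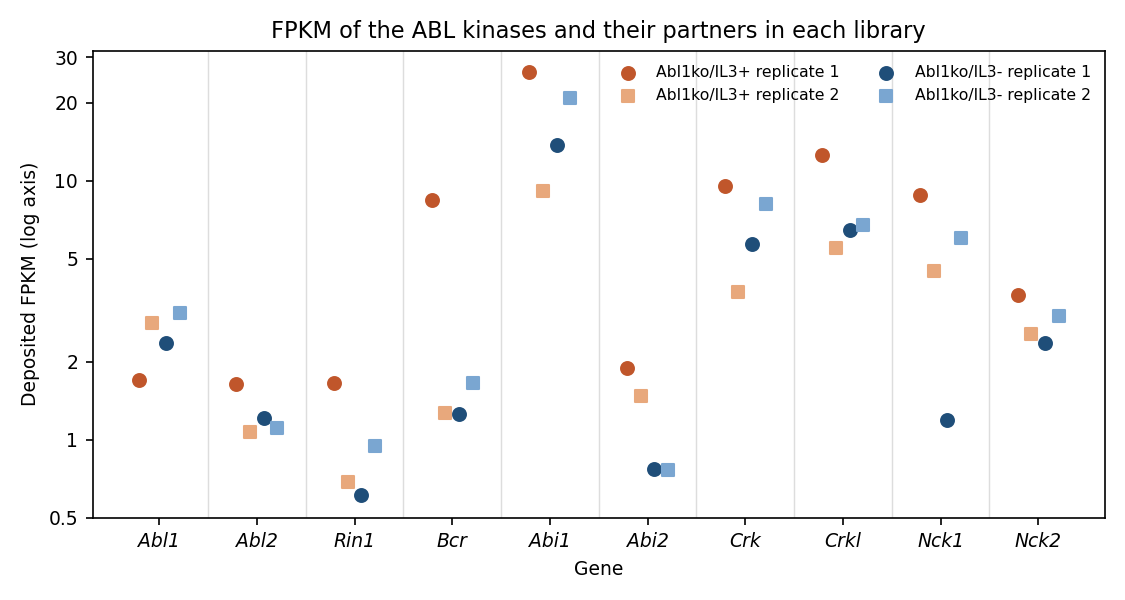
Deposited FPKM (log axis) of the 10 genes, with 1 point per library, orange for Abl1ko/IL3+ and blue for Abl1ko/IL3-, circles for replicate 1 and squares for replicate 2. Abl1ko/IL3+ replicate 1 was the highest library for each gene but Abl1, where it was the lowest at 1.70 FPKM, and the groups were apart only for Abi2.

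Transcripts of Abl1 (chr2:31688376-31800339, plus strand, GRCm38 as in the deposited table) were present in every library of the edited cells. Cells with IL-3 had 1.70 and 2.82 FPKM, and cells without IL-3 had 2.37 and 3.10 FPKM. The groups overlapped, and replicate 1 with IL-3 was the lowest of the 4 libraries. The group means were 2.26 ± 0.795 FPKM in Abl1ko/IL3+ and 2.74 ± 0.511 FPKM in Abl1ko/IL3- (SD, n = 2 each). On the log2 scale the fold change was 0.21 with a 95% interval from -0.95 to 1.37 (edgeR's quasi-likelihood test, adjusted p = 0.98). Without Abl1ko/IL3+ replicate 1 it turned to -0.19.

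Abl2 (chr1:156558786-156649568, plus strand), the paralog that was not targeted, had about the same level in 3 libraries and a higher one in the fourth. It was measured at 1.64 and 1.08 FPKM with IL-3 and at 1.22 and 1.11 FPKM without it. The Abl1ko/IL3- values lay within the range of the Abl1ko/IL3+ values. The group means were 1.36 ± 0.402 and 1.16 ± 0.0797 FPKM (SD, n = 2 each), and the log2 fold change was -0.22 with a 95% interval from -1.21 to 0.78 (edgeR's quasi-likelihood test, adjusted p = 0.975). Differences within that interval cannot be told from none with these libraries.

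Per length, Abl1 was above Abl2 in each library, and their FPKM ranges over the 4 libraries did not overlap. Of the FPKM summed over both kinases, Abl2 made up 49.2% and 27.6% in cells with IL-3, compared with 33.9% and 26.3% in cells growing without. The kinases were thus nearly equal in Abl1ko/IL3+ replicate 1, with an Abl2 to Abl1 ratio of 0.970, and apart in the other libraries, with ratios of 0.381, 0.513 and 0.357. The mean log2 ratio was -0.72 ± 0.95 with IL-3 and -1.22 ± 0.37 without it (SD, n = 2 each). The difference of -0.51 was smaller than the spread between the Abl1ko/IL3+ replicates (exact permutation test, two-sided, p = 0.667), and with 2 libraries against 2 that test cannot go below 0.333. Without Abl1ko/IL3+ replicate 1 the difference was 0.17.

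Rin1 (chr19:5050481-5057071, plus strand), the activator of ABL kinases, was among the lowest of the 10 genes. It reached 1.66 and 0.687 FPKM in Abl1ko/IL3+ cells and 0.612 and 0.950 FPKM in Abl1ko/IL3- cells. Only Abl1ko/IL3+ replicate 1 stood above 1 FPKM, and the other libraries of both groups lay together. These values rest on 540 and 226 counts in Abl1ko/IL3+ and 166 and 288 in Abl1ko/IL3-. The smallest of these, 166, has an exact Poisson interval from 142 to 193, so the gap to the largest exceeds counting error for independent counts. Without against with IL-3, the log2 fold change was -0.57 with a standard error of 0.57 (edgeR's quasi-likelihood test, adjusted p = 0.937), and 0.034 without Abl1ko/IL3+ replicate 1.

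Bcr (chr10:75060592-75184921, plus strand), the fusion partner of ABL1 in leukemia, gave the largest fold change of the 10 genes, and that value rested on 1 library. It had 4619 and 709 counts where IL-3 was present, and 581 and 856 where it was not, or 8.41, 1.27, 1.26 and 1.66 FPKM in the same order. Replicate 1 with IL-3 was 6.61 times replicate 2 of its own group in FPKM, while replicate 2 lay among the Abl1ko/IL3- libraries. The log2 fold change was -1.66 with a standard error of 0.83 and a 95% interval from -3.80 to 0.49 (edgeR's quasi-likelihood test, unadjusted p = 0.104, adjusted p = 0.86). Without Abl1ko/IL3+ replicate 1 it was 0.057, and without Abl1ko/IL3+ replicate 2 it was -2.41, with an adjusted p-value of 0.146 in edgeR. The fold between the TMM-normalized Abl1ko/IL3+ replicates was larger than that of 91.5% of the genes tested.

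Abi2 (chr1:60409619-60481158, plus strand) was the gene whose groups were apart. It was counted 1087 and 857 times in cells with IL-3, compared with 369 and 410 times in cells without, or 1.90, 1.48, 0.769 and 0.765 FPKM. Both Abl1ko/IL3- libraries lay below both Abl1ko/IL3+ libraries, and the replicates of each group were close, at 1.28-fold and 1.01-fold apart in FPKM. The group means were 1.69 ± 0.297 and 0.767 ± 0.00333 FPKM (SD, n = 2 each). The log2 fold change was -1.14 with a standard error of 0.39 and a 95% interval from -2.14 to -0.15, a 2.21-fold lower level without IL-3. The unadjusted p-value was 0.0321 and the adjusted one 0.815 (edgeR's quasi-likelihood test), so Abi2 did not pass the threshold over all genes. Groups that did not overlap, with the lower values without IL-3, were found for 1 of the 10 genes and for 17.9% of all genes tested, and those with the higher values without IL-3 for 0 of the 10 genes and for 19.4% of all genes. Its log2 fold change stayed between -1.21 and -1.08 when each library was left out in turn, but the unadjusted p-value was 0.207 without Abl1ko/IL3- replicate 1 and 0.250 without Abl1ko/IL3- replicate 2 (edgeR), and 0.0571 in limma on log2(FPKM + 1). The summed granulocyte and T lineage markers, higher without IL-3, did not overlap between the groups either. Nor did the summed myeloid progenitor and B lineage markers, lower without it, while the erythroid sum overlapped. The B lineage sums were close, at 12.5 and 14.6 FPKM with IL-3 and 12.1 and 12.2 FPKM without it. In the directions of these sums, 6 of 8 granulocyte, 2 of 3 T lineage, 2 of 12 myeloid progenitor and 1 of 6 B lineage genes were apart. The B lineage gene was Igll1, with 12 to 57 counts. The T lineage sum was 2.14 FPKM or less in each library, and the part of these markers in the Abi2 difference was not tested.

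Abi1 (chr2:22940073-23040241, minus strand), its paralog, was the most abundant of the 10 genes per length in each library. It was measured at 26.3 and 9.11 FPKM with IL-3 and at 13.7 and 20.9 FPKM without it. The Abl1ko/IL3- libraries lay between the Abl1ko/IL3+ libraries, which were 2.89-fold apart. Its log2 fold change was -0.0064 with a 95% interval from -1.33 to 1.32 (edgeR's quasi-likelihood test, adjusted p = 0.999). Of the summed FPKM of the ABI pair, Abi2 contributed 6.73% and 13.95% in Abl1ko/IL3+ cells and 5.32% and 3.53% in Abl1ko/IL3- cells. These shares did not overlap between the groups, and they are given as a description.

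**Figure D2:**
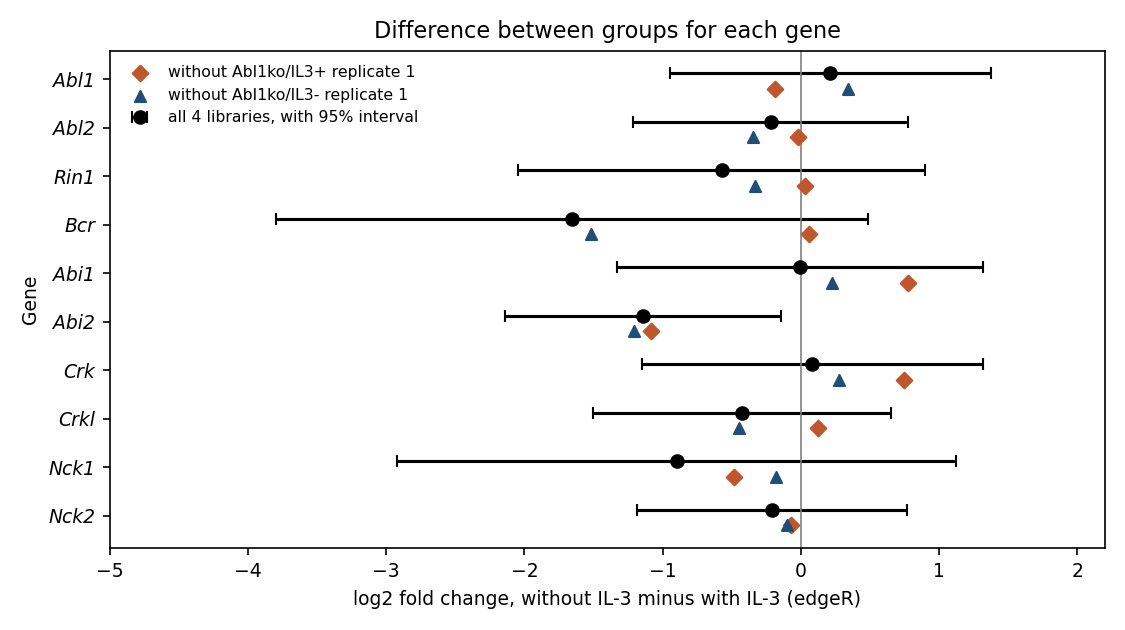
Log2 fold change of each gene, cells without IL-3 minus cells with IL-3, from edgeR: black points and bars are all 4 libraries with the 95% interval, diamonds the fit without Abl1ko/IL3+ replicate 1 and triangles the fit without Abl1ko/IL3- replicate 1. The interval of Abi2 lies below 0, from -2.14 to -0.15, and those of the other genes span 0, while the diamond of Bcr is at 0.057.

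Crk (chr11:75679259-75706065, plus strand) and Crkl (chr16:17451987-17487434, plus strand), the adaptors that bind phosphorylated ABL substrates, were both well expressed. Crk had 9.55 and 3.73 FPKM with IL-3 and 5.69 and 8.14 FPKM without it. The Abl1ko/IL3- libraries fell inside the range of the Abl1ko/IL3+ libraries, and the log2 fold change was 0.083 with a 95% interval from -1.15 to 1.32 (edgeR's quasi-likelihood test, adjusted p = 0.996). Crkl had 12.5 and 5.50 FPKM with IL-3 and 6.45 and 6.75 FPKM without it. Its Abl1ko/IL3- replicates differed by 1.05-fold and its Abl1ko/IL3+ replicates by 2.28-fold, with replicate 1 alone above the rest. Its log2 fold change was -0.42 (standard error 0.42, adjusted p = 0.936 in edgeR), and 0.12 without Abl1ko/IL3+ replicate 1. Of the summed FPKM of the pair, Crkl made up 56.8% and 59.6% in Abl1ko/IL3+ cells and 53.1% and 45.3% in Abl1ko/IL3- cells. As for the ABI pair, the shares did not overlap between the groups, and they are a description without a test.

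Nck1 (chr9:100492293-100546134, minus strand) and Nck2 (chr1:43444579-43569342, plus strand) link phosphorylated tyrosines to actin regulators, and Nck1 was the gene in which 1 library without IL-3 stood apart. Nck1 was counted 2828 and 1458 times in cells with IL-3, compared with 320 and 1811 times in cells without, or 8.80, 4.48, 1.19 and 6.02 FPKM. Abl1ko/IL3- replicate 1 was below all others, with an exact Poisson interval from 286 to 357 counts, and the other replicate without IL-3 lay between the Abl1ko/IL3+ libraries. The fold between the TMM-normalized Abl1ko/IL3- replicates was larger than that of 94.2% of the genes tested. The log2 fold change was -0.90 with a standard error of 0.79 (edgeR's quasi-likelihood test, adjusted p = 0.928). It was -0.18 without Abl1ko/IL3- replicate 1 and -2.40 without Abl1ko/IL3- replicate 2.

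Nck2 varied little. It had 3.63 and 2.56 FPKM with IL-3 and 2.37 and 3.01 FPKM without it, and the groups overlapped. Its log2 fold change was -0.21 with a 95% interval from -1.19 to 0.77 (edgeR's quasi-likelihood test, adjusted p = 0.975). Nck1 was above Nck2 in 3 libraries, where Nck2 made up 29.2% to 36.3% of the summed FPKM of the pair. In Abl1ko/IL3- replicate 1 the order was turned, with Nck2 at 66.6% of the pair.

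**Figure D3:**
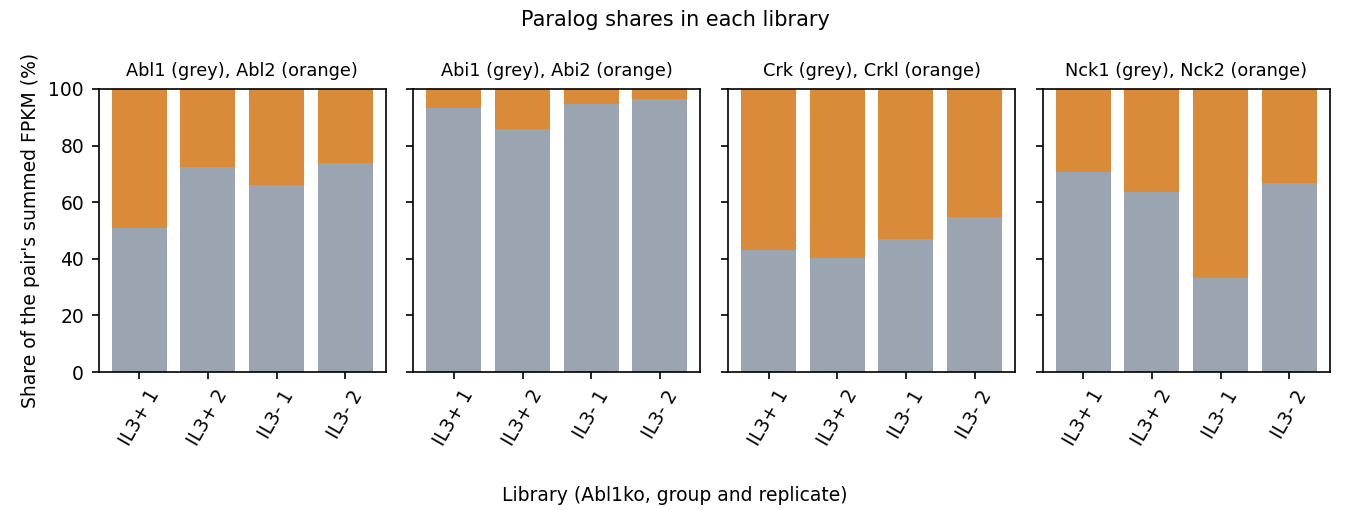
Share of each paralog (%) in the summed deposited FPKM of its pair, 1 stacked bar per library, with the gene named first in grey and the second in orange. Abl2 reaches 49.2% in Abl1ko/IL3+ replicate 1, Abi2 stays at 13.95% or less, and Nck2 is the larger part, at 66.6%, only in Abl1ko/IL3- replicate 1.

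Ordered by mean FPKM over the 4 libraries, the genes ran from Abi1 (17.5 FPKM) over Crkl (7.81), Crk (6.78), Nck1 (5.13), Bcr (3.15), Nck2 (2.89), Abl1 (2.50), Abl2 (1.26) and Abi2 (1.23) to Rin1 (0.977 FPKM). Among neighbours in that order, Abl1 and Abl2 were the pair whose ranges over the libraries did not overlap. Abi1 was above Crkl in 4 of 4 libraries although their ranges overlapped, whereas Bcr was above Nck2, and Nck2 above Abl1, in 1 of 4 libraries. Among neighbours, only the order of Abi1 over Crkl and that of Abl1 over Abl2 were thus the same in each library. Abl2 was above Abi2 in 2 of 4 libraries.

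The spread between libraries was shared by most of these genes. In TMM-normalized counts scaled to library size (CPM), Abl1ko/IL3+ replicate 1 was the highest library for 9 of the 10 genes, and for 31.8% of the genes tested, while 31.6% of the genes tested were lowest there. Abl1 was the exception, with 20.5 CPM there and 32.3 to 40.9 CPM in the other libraries. With the mean of each gene over the 4 libraries set to 0, the median of the 10 genes was 0.60 on the log2 scale in Abl1ko/IL3+ replicate 1 and -0.16 in Abl1ko/IL3+ replicate 2. It was -0.20 and 0.0068 in the Abl1ko/IL3- replicates, while the median of all genes tested stayed between 0.0053 and 0.038. For 9 of the 10 genes, Abi2 excepted, the replicates of at least 1 group were further apart in FPKM than the group means. The share of all genes for which this holds was not computed, so the count only describes these values. Abl1ko/IL3+ replicate 1 also had the lowest summed erythroid markers, as given above, and their part in the spread was not tested.

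**Figure D4:**
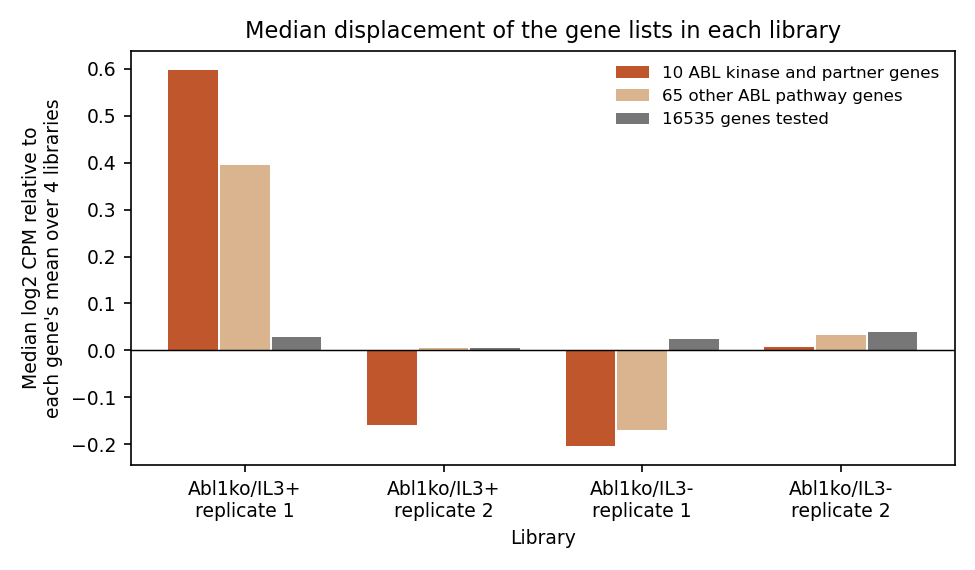
Median over genes of log2 CPM, centred on the mean of each gene, per library, for the 10 ABL kinase and partner genes, 65 other ABL pathway genes and all 16535 genes tested. The 10 genes stand at 0.60 and the pathway genes at 0.39 in Abl1ko/IL3+ replicate 1, where all genes stand at 0.029.

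The genes whose pattern over the 4 libraries was closest to Abl1 and Abl2 were sought among 10473 genes with a mean of 5 CPM or more, by the Euclidean distance of log2 CPM centred on each gene's mean. Closest to Abl1 were Rps19-ps2 (distance 0.084), Mif (0.084) and Gm7413 (0.088), and the counts of the ribosomal pseudogene Rps19-ps2 are uncertain because near-identical copies exist. Closest to Abl2 were Zfp35 (0.024), Trim56 (0.024) and Rubcn (0.044). For Abl1, 24 genes lay within 2 times the smallest distance, and for Abl2 4 genes, and with 4 libraries these matches only describe the values.

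Other genes of the ABL pathway, 74 by name, were examined as lists, of which 69 were in the table and 65 passed the expression filter. None had an adjusted p-value under 0.05 in edgeR's quasi-likelihood test, where 0% of all genes did, and 2 of the 65 had an unadjusted one, both lower without IL-3, against 3.36% of all genes in that direction. DESeq2's Wald test called 1 of them, Nedd9, where it called 1.64% of all genes. Of the 65 genes, 42 had lower and 23 higher values without IL-3, with a median log2 fold change of -0.20. Over all genes tested, 8589 were lower and 7946 higher, with a median of -0.027. The groups were apart for 6 of the 65 genes with the higher values without IL-3, beside 19.4% of all genes tested. They were apart for 13 with the lower values, beside 17.9%. As for the 10 genes, many (34 of 65) were highest in Abl1ko/IL3+ replicate 1.

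The other subunits of the WAVE complex, into which ABI1 and ABI2 assemble, were represented by 7 genes, of which 6 were tested. Of these, 5 had lower and 1 a higher value without IL-3, with a median of -0.42 on the log2 scale, and in edgeR no adjusted p-value among them was under 0.85. The small subunit Brk1 was at 147.9 FPKM or more in each library, and the scaffold subunit Nckap1l, the hematopoietic form, at 15.2 to 35.4 FPKM, whereas its paralog Nckap1 had 4 counts or fewer in each library. Wasf2, the WAVE protein itself, had 15.0 and 8.39 FPKM with IL-3 and 5.51 and 7.17 FPKM without it, so the groups did not overlap. Cyfip1 overlapped between the groups (8.09 and 5.12 FPKM in Abl1ko/IL3+, 3.48 and 6.18 FPKM in Abl1ko/IL3-). Its paralog Cyfip2 had 26.5, 10.2, 9.51 and 1.39 FPKM in the same order, and its groups did not overlap, which made it and Wasf2 the 2 such genes of the 6, where 17.9% of all genes were apart in that direction. Abi3, the third ABI gene, was at 1.51 to 2.94 FPKM.

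Among the adaptors and docking proteins, 9 genes had higher and 13 lower values without IL-3. The groups of 4 of the 22 were apart with higher values and of 4 with lower ones, beside 19.4% and 17.9% of all genes. Dok2, a docking protein that dampens RAS signaling, was counted 8928 and 13329 times in cells with IL-3, compared with 4235 and 4820 times in cells without, and its groups did not overlap (log2 fold change -1.16, unadjusted p = 0.0331, adjusted p = 0.815 in edgeR). Nedd9, a scaffold of the CAS family that binds CRK, was counted 4545 and 85 times in cells with IL-3, compared with 44 and 118 times in cells without. The edgeR log2 fold change, -4.60 with a standard error of 1.77 (adjusted p = 0.841), came with groups that overlapped, since Abl1ko/IL3+ replicate 2 lay among the libraries without IL-3. The related scaffold Bcar1 was counted 70 and 37 times in cells with IL-3, compared with 82 and 303 times in cells without (log2 fold change 1.97, adjusted p = 0.844 in edgeR). Cbl, a ubiquitin ligase for tyrosine kinases, was counted 3208 and 3859 times in cells with IL-3, compared with 4426 and 6473 times in cells without (log2 fold change 0.76, adjusted p = 0.855 in edgeR). The groups of Bcar1 and Cbl did not overlap, with the higher values without IL-3. Sorbs3 had 0 to 36 counts, too few to compare.

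Of the cytoskeletal and trafficking genes, 4 had higher and 11 lower values without IL-3, and the nuclear and DNA damage partners were split 8 and 7. Evl, an ENA/VASP protein of the actin leading edge, followed the pattern of Bcr and Nedd9, with 1209 counts in Abl1ko/IL3+ replicate 1 and 20, 55 and 53 in the others. Cables1, which links ABL1 to CDK5, was counted 459 and 254 times in cells with IL-3, compared with 498 and 702 times in cells without, at 0.93 on the log2 scale (standard error 0.46, edgeR adjusted p = 0.86). The groups of Cables1 did not overlap, with the higher values without IL-3. Of the 15 cytoskeletal genes tested, 1 was apart in that direction and 4 in the other, beside 19.4% and 17.9% of all genes. The median log2 fold change was -0.20 for the cytoskeletal list and 0.037 for the nuclear list. Of 7 kinases upstream of ABL that were tested, 1 was higher and 6 lower without IL-3, with a median of -0.36 and 0 genes at an unadjusted p-value under 0.05.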

How the data were processed

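Ribosomal RNA-depleted total RNA from 32Dcl3-Abl1ko cells was sequenced on an Illumina HiSeq. According to the paper, the authors aligned reads to GRCm38 and summarized them with Rsubread. The submitters' processing notes name STAR, Cuffdiff and mm10. Versions and the strand setting are not given in the sources used here. The authors deposited raw counts per gene and FPKM values. Among counts from 1 to 20, 57.7% to 59.9% were even. Counts may thus not be independent, and the Poisson intervals may be too narrow, but the reason was not tested.

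Samples were grouped by title. Genes were filtered with filterByExpr, normalized by TMM and tested with the quasi-likelihood test of edgeR 4.0.16 (R 4.3.3), two-sided, with Benjamini-Hochberg adjustment over all genes tested. Standard errors and 95% intervals were derived from the F statistic. Steps were tested on simulated data. Alternatives used DESeq2 1.42.0, limma 3.58.1, other filters and normalizations, a replicate block and leaving out each library. The crossed block was chosen after seeing the data.

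The members and lists were chosen with earlier results of these data known. Named were the 10 members, pathway genes with an unadjusted p-value under 0.05 or among the 3 largest log2 fold changes either way, and the 3 genes nearest to Abl1 and Abl2. The WAVE genes were named as a whole list, after their values were seen. Sequences came from GENCODE M21 transcripts (GRCm38), and 7 of 10 members had the same coordinates there as in the table.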

Additional observations from a re-analysis of the deposited data

How the results depend on the processing

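The number of the 10 genes past the adjusted threshold was 0 in each of the 8 other settings and with each of the 4 libraries left out. The number among all genes was 0 in edgeR and limma with all 4 libraries, 271 with DESeq2's Wald test, and 0 to 22 when a library was left out (22 without Abl1ko/IL3- replicate 1). Of the 65 other ABL pathway genes DESeq2 called 1, beside 1.64% of all genes. Under a replicate block in edgeR, 0 genes passed. Of the 10 genes, 0 had an unadjusted p-value under 0.05 (1 without the block), against 3.31% of all genes (5.91% without it). Deviations of same-numbered libraries were correlated at -0.194. With 2 libraries a group this is a single contrast, which cannot show whether they share a clone or a day. The labels give no pairing, and the numbers were not taken as pairs. With the pairs crossed, 0 genes passed. In the 8 settings, 76 of 80 log2 fold changes kept their direction. The exception was Abi1, at 0.11 with the replicate block, 0.11 with the pairs crossed, 0.11 in limma on log2(FPKM + 1) and 0.12 in limma on log2(FPKM + 0.1).

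Leaving out 1 library assumes that the lone sample varies like the other group. It reversed 8 of 40 log2 fold changes, 5 of them without Abl1ko/IL3+ replicate 1. The ranges were -0.19 to 0.80 for Abl1, -2.41 to 0.057 for Bcr, -0.50 to 0.77 for Abi1, -0.36 to 0.74 for Crk, -0.81 to 0.12 for Crkl and -0.99 to 0.034 for Rin1. The other 4 genes kept their direction, at -0.38 to -0.020 for Abl2, -1.21 to -1.08 for Abi2, -2.40 to -0.18 for Nck1 and -0.32 to -0.069 for Nck2. The cause was not tested. The difference in the log2 Abl2 to Abl1 ratio ranged from -1.18 to 0.17. With 2 libraries a group and replicates up to several-fold apart, the spread between libraries and not the depth limits these values.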
